A study of Mus musculus with 2 samples.

Results

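The bone morphogenetic protein (BMP) ligands and their antagonists were followed as 9 genes in fibro/adipogenic progenitors (FAPs), the mesenchymal progenitors that lie between the myofibers of skeletal muscle. The set was taken by gene name, as 7 ligand genes (Gdf10, Bmp2, Bmp3, Bmp4, Bmp5, Bmp6 and Bmp7) and 2 secreted antagonists (Grem1 and Nog), and all 9 were among the 31053 genes of the count tables. Live cells had been sorted as Lin-Vcam1-Sca1+, with CD45 and CD31 as the lineage markers, from limb muscles of C57BL/6 mice at 3 weeks of age and profiled by droplet scRNA-Seq. Both groups carried the floxed allele: one library came from Bap1f/f mice (labelled Bap1 WT, here the WT-labelled library), and the other came from Prx1-Cre;Bap1f/f mice (labelled Bap1 ΔMPC, here the ΔMPC-labelled library). Prx1-Cre is active in the early limb mesenchyme, so that the other tissues formed from it, such as bone and tendon of the limb, recombine as well as FAPs. The comparison asks how loss of Bap1, a nuclear deubiquitinase, alters the FAPs.

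BMPs are secreted dimers of the TGF-β superfamily. They bind type I and type II serine/threonine kinase receptors, the type I receptor phosphorylates Smad1, Smad5 and Smad9, and these enter the nucleus with Smad4 to drive genes such as the Id family. Noggin and gremlin bind the ligands outside the cell and keep them from the receptors. BMP2, BMP4, BMP5, BMP6 and BMP7 activate this route, whereas BMP3 and its close relative GDF10, also called BMP3b, do not act as typical BMPs and can oppose them. In muscle, BMP signaling in myofibers is known to favor mass, and GDF10 is known as a product of muscle mesenchymal progenitors.

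There was 1 library per genotype, so the differences below cannot be set against variation between mice, and none carries a p-value. The libraries held 4103 and 4378 cells and 51015705 and 49540066 unique molecular identifiers (UMIs, each a captured mRNA molecule), with medians of 12232 and 11017.5 UMIs per cell, and 5 barcodes occurred in both. Bap1 itself had 17.6 counts scaled to the library total (CPM, UMIs per 1000000) in the WT-labelled library and 21.6 CPM in the ΔMPC-labelled library. Counts per gene from the 3′ end do not tell the deleted exons from the rest, so this level checks neither label. Xist was at 791 and 702 CPM and the Y-linked genes had 2 and 0 UMIs, whereas the methods state that male mice served for whole transcriptomic analysis. Pdgfra, which defines FAPs, was present in both (347 and 298 CPM). Of 7 immune markers, Ptprc, Adgre1 and Cd3e had no UMI, and the list summed to 7.92 and 14.0 CPM. Of 6 muscle stem cell markers, Pax7, Myf5 and Myod1 had no UMI, and the list summed to 39.3 and 22.3 CPM. The authors had removed cells with high markers of other cell types, so these zeros are no separate check of the sort. Some lists of markers of other cell types differed between the libraries. The 6 adipocyte markers summed to 6.21 CPM in the WT-labelled library, with 2 of them at 0, and to 75.6 CPM in the ΔMPC-labelled library, with none at 0, and the 6 tendon markers summed to 74.1 and 128 CPM, with none at 0 in either. The 6 Schwann cell markers summed to 21.5 and 67.9 CPM, with 1 at 0 in the second, and S100b alone gave 16.8 and 63.7 CPM of this, while Mbp was lower. The 6 markers of chondrocytes and osteoblasts summed to 38.5 and 66.6 CPM.

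Distinct kinds of FAP are known, one marked by Dpp4 and one by Cxcl14. Cells were called Dpp4-type here where Pi16, Sema3c, Anxa3 and Efemp1 together reached 25 UMIs per 10000, and other cells where they did not. Dpp4-type cells were 1050 of 4103 (25.6%, exact Clopper-Pearson 95% interval 24.3% to 27.0%) in the WT-labelled library and 1251 of 4378 (28.6%, 27.2% to 29.9%) in the ΔMPC-labelled library. The order of these shares depends on the cut, being 19.8% and 18.5% with a cut of 40. Dpp4, which was not used for the cut, had 298 CPM in the Dpp4-type and 56.5 CPM in the other cells of the WT-labelled library, and 268 and 39.5 CPM in the ΔMPC-labelled library. Cxcl14 ran the other way, with 10.1 and 317.0 CPM in the first library and 63.2 and 956 CPM in the second. The class is a range of a score and not a separate cell type, and 210 (5.12%) and 337 (7.70%) cells lay between 20 and 30. In Dpp4-type cells the cut genes summed to 6613 and 5459 CPM, and the median score was 59.7 and 49.1. Between the libraries, 2 of these 4 genes were higher and 2 lower there beyond counting error. Cells of equal score or class thus need not be matched between the libraries. In the following, a level is the CPM of UMIs summed over cells, and a ratio is the log2 of one CPM over another with an exact 95% interval that covers counting error only. A ratio beyond 3-fold, that is 1.58 in log2, was counted as past the fold. For summed UMIs, fewer cells with a transcript and fewer transcripts per cell cannot be told apart, so the shares of cells are given beside them.

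The ΔMPC-labelled library had less BMP ligand mRNA, and most of the difference lay in Gdf10, Bmp4 and Bmp5. The 7 ligand genes together had 24621 UMIs, or 483 CPM (477 to 489), in the WT-labelled library and 11205 UMIs, or 226 CPM (222 to 230), in the ΔMPC-labelled library, a log2 ratio of -1.09 (-1.13 to -1.06). Without Gdf10, the sums were 279 and 166 CPM and the log2 ratio was -0.75. Of the 8 members that entered, with 20 or more UMIs and a mean above 0.01 per 10000, 3 were past 3-fold in all cells, all lower (Gdf10, Bmp3 and Bmp5), beside 3.12% of the 12380 genes compared. The median log2 ratio of the 8 was -0.85, beside 0.10 over all genes.

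Gdf10 was the most abundant member in the WT-labelled library, and its interval overlapped that of Bmp2 in the ΔMPC-labelled library. Its level was 204 CPM (200 to 207) in the WT-labelled library and 59.8 CPM (57.7 to 62.0) in the ΔMPC-labelled library, a log2 ratio of -1.77 (-1.83 to -1.71). UMIs of Gdf10 were found in 44.3% and 16.1% of cells. When every cell was thinned to 5000 UMIs, which left out 120 and 210 shallower cells, 34.2% and 11.7% of cells had Gdf10, with 3.26 and 2.80 UMIs per cell that had any. The share of cells differed more than the amount per positive cell. That amount leaves out cells without a UMI, so these values do not tell fewer cells from fewer transcripts per cell.

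Bmp4, a ligand of the classical route, came next in the WT-labelled library. It had 134 CPM (131 to 137) there and 54.7 CPM (52.6 to 56.8) in the ΔMPC-labelled library, a log2 ratio of -1.29 (-1.36 to -1.23), which is not past 3-fold. It was found in 58.3% and 31.7% of cells (38.1% and 19.3% after thinning). Bmp5, which acts in the same way and shapes skeletal elements, had the lowest ratio of the set. Its level was 39.1 CPM (37.4 to 40.8) and 6.50 CPM (5.81 to 7.25), a log2 ratio of -2.59 (-2.76 to -2.42), and it was found in 19.6% and 3.34% of cells. Among thinned cells with Bmp5, the UMIs per cell were close, at 1.68 and 1.66, with the same limit as for Gdf10.

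Of the 7 member ligands, Bmp2 was the one that was higher beyond counting error in all cells. It had 41.6 CPM (39.9 to 43.4) and 58.5 CPM (56.4 to 60.7), a log2 ratio of 0.49 (0.41 to 0.57), and was found in 26.9% and 31.2% of cells. Bmp3, which lacks classical BMP activity, had 20.1 CPM (18.9 to 21.4) and 6.54 CPM (5.85 to 7.29), a log2 ratio of -1.62 (-1.80 to -1.44). Its interval includes 3-fold, and without the cells that held an adipocyte-marker UMI it was not past it.

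Bmp6, known for its part in iron control through hepcidin, had 21.4 CPM (20.2 to 22.7) and 16.1 CPM (15.03 to 17.3). Its log2 ratio was -0.41, within 3-fold. Bmp7, a ligand of kidney and bone formation, had 23.1 CPM (21.8 to 24.4) and 24.0 CPM (22.7 to 25.4), a log2 ratio of 0.06 (-0.06 to 0.18) that turned to -0.04 with TMM scaling. This level summed over all cells hid opposite differences in the 2 classes of cells, given further on.

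The antagonists of the set were scarce. Nog, which encodes noggin, had 168 UMIs in 127 cells (3.29 CPM, 2.81 to 3.83) and 123 UMIs in 101 cells (2.48 CPM, 2.06 to 2.96). Grem1, which encodes gremlin, had 8 UMIs in 7 cells and 23 UMIs in 8 cells, and 11 of those 23 lay in 1 cell. By class, Grem1 had 2 and 0 UMIs in Dpp4-type cells and 6 and 23 UMIs in other cells. Grem1 did not reach the minimum of mean expression and was left out of all counts. Because the sort holds no cell type known to lack these genes, the share that free RNA in the droplets would give could not be measured.

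The order of the members thus differed between the libraries. In the WT-labelled library it ran Gdf10, Bmp4, Bmp2, Bmp5, Bmp7, Bmp6, Bmp3, Nog, Grem1, with intervals that overlapped between Bmp2 and Bmp5, between Bmp7 and Bmp6 and between Bmp6 and Bmp3. In the ΔMPC-labelled library, Gdf10, Bmp2 and Bmp4 lay together at the top, each overlapping its neighbor, followed by Bmp7, Bmp6, Bmp3, Bmp5, Nog and Grem1, with Bmp3 and Bmp5 overlapping. Gdf10 made 42.2% of the ligand UMIs in the first library and 26.4% in the second, whereas Bmp2 made 8.63% and 25.9%.

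**Figure D1:**
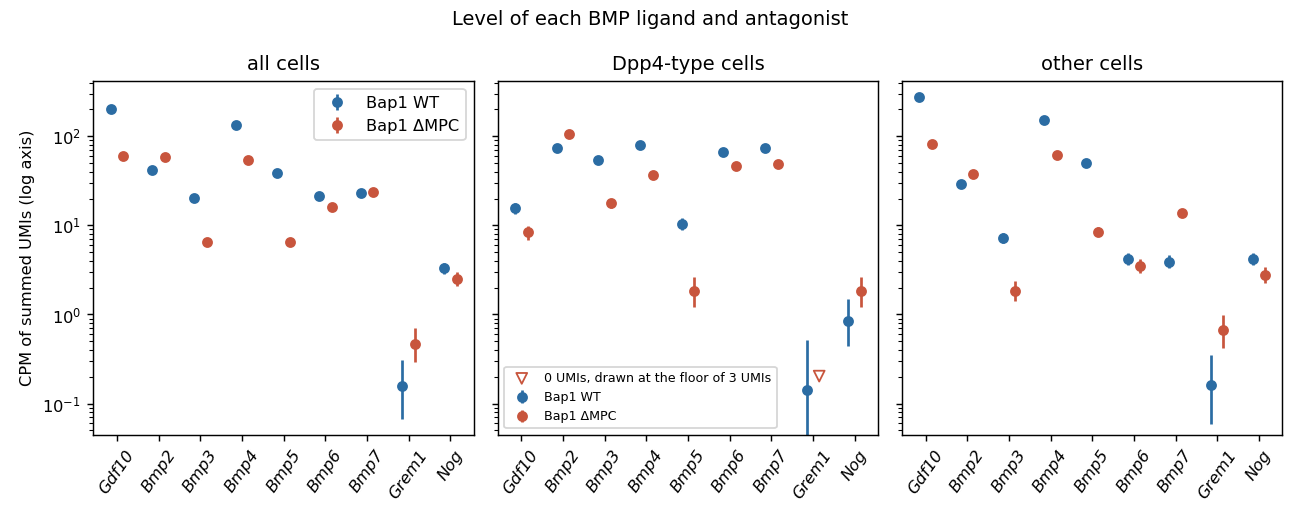
Level of each member in CPM of summed UMIs (log axis) in all cells, Dpp4-type cells and other cells, for the WT-labelled library (blue) and the ΔMPC-labelled library (red), 1 library each. Bars are exact Poisson 95% intervals of counting error, and the open triangle marks 0 UMIs drawn at the floor of 3 UMIs. Gdf10, Bmp4 and Bmp5 are lower in red in all 3 panels, and Bmp7 lies lower in red among Dpp4-type cells and higher among other cells.

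Gdf10, Bmp4 and Bmp5, which share a lower level in the ΔMPC-labelled library, lie apart in the genome and start from unlike promoters. By the GENCODE vM21 annotation of GRCm38, which is the mm10 build of the files, Gdf10 (chr14:33923587-33937983, plus strand) and Bmp4 (chr14:46383520-46390669, minus strand) share a chromosome, Bmp5 (chr9:75775364-75900310, plus strand) lies on another, and Bmp6 (chr13:38345107-38500302, plus strand) overlaps the antisense gene Txndc5. Bmp5 overlaps Gm47723 on its own strand, and reads from the shared stretch cannot be told apart. Bmp3, also lower, lies at chr5:98854415-98884396 on the plus strand. The RefSeq table of GRCm38.p6 held promoters for 5 of the 9 members, and Bmp3 was not among them. The 300 bases from 250 before to 50 after the RefSeq start are shown for Gdf10, Bmp4 and Bmp5, which were all lower in the ΔMPC-labelled library, and for Bmp6, which differed least of these, with each CG dinucleotide in capitals. The RefSeq start of Bmp6 lies downstream of its GENCODE start, so its window falls inside the GENCODE gene.
Gdf10 (chr14:33923337-33923636, plus strand): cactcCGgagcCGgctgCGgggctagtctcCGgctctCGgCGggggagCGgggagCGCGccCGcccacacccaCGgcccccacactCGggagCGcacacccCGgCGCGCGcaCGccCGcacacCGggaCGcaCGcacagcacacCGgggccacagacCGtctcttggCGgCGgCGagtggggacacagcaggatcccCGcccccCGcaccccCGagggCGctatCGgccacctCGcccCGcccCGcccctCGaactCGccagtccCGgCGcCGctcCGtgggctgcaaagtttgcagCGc
Bmp4 (chr14:46390620-46390919, minus strand): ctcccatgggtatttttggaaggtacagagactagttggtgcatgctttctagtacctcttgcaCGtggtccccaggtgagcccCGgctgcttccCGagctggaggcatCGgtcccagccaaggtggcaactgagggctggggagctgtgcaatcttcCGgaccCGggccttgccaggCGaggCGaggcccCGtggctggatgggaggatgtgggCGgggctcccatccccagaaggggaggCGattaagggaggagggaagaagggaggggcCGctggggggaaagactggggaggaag
Bmp5 (chr9:75775115-75775414, plus strand): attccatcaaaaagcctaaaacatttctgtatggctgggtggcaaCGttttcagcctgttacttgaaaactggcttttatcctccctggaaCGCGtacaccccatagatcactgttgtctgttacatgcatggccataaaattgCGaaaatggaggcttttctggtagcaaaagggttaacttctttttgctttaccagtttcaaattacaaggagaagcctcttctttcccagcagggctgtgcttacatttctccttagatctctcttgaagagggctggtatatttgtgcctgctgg
Bmp6 (chr13:38345466-38345765, plus strand): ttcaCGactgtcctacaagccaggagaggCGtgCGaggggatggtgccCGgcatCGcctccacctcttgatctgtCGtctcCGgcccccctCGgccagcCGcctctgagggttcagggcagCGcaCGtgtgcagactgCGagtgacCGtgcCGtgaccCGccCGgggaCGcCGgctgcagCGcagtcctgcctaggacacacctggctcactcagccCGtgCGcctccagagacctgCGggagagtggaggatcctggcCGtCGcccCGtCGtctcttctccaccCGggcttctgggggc
The Gdf10 promoter held 42 CG dinucleotides at a GC content of 77.3%, and 3.03% of the 32851 promoters in the table held as many. That of Bmp4 held 12 (39.6% of promoters hold as many), that of Bmp5 held 4 (68.6%) at a GC content of 43.3%, and that of Bmp6 held 27 (15.5%), beside a median of 7 over all promoters. Bmp5 and Gdf10, which were both past 3-fold lower, thus differ in CG content. TATAAA, searched on both strands, occurred in 13.6% of all promoters and in none of the 5 members'. GGCGCC, which reads the same on both strands, occurred in 11.9% of promoters and in those of Gdf10 and Grem1. A match or its absence describes these letters only.

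The members split sharply between the classes of cells. Gdf10, Bmp4 and Bmp5 were higher in other cells, and Bmp2, Bmp3, Bmp6 and Bmp7 were higher in Dpp4-type cells, in both libraries. Nog was higher in other cells of the WT-labelled library, whereas in the ΔMPC-labelled library the interval of its log2 ratio, -0.59 (-1.27 to 0.03, from 27 and 96 UMIs), includes 0. In the WT-labelled library, 6 of 8 members were past 3-fold between the classes (Gdf10, Bmp3, Bmp5, Bmp6, Bmp7 and Nog), beside 8.63% of all genes. In the ΔMPC-labelled library, 5 were past it, without Nog, beside 8.03%.

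In the WT-labelled library, Gdf10 had 275 CPM in other cells and 15.6 CPM in Dpp4-type cells, 17.7-fold lower, a log2 ratio of -4.14 (-4.34 to -3.95). Bmp5 had 50.1 and 10.4 CPM (log2 ratio -2.27), and Bmp4 had 154 and 80.8 CPM (log2 ratio -0.93). Nog was at 4.23 and 0.85 CPM (log2 ratio -2.31, -3.30 to -1.47). These are the members higher in other cells, although Bmp4 was within 3-fold and was found in 50.8% of Dpp4-type and 60.9% of other cells. No cell was called by Cxcl14 itself.

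Of the members higher in Dpp4-type cells, Bmp7 had 73.1 CPM there and 3.90 CPM in other cells, 18.7-fold higher, a log2 ratio of 4.23 (3.98 to 4.49). Bmp6 was almost as skewed, with 66.4 and 4.201 CPM (15.8-fold higher, log2 ratio 3.98), followed by Bmp3 with 53.6 and 7.26 CPM (7.38-fold higher) and Bmp2 with 74.7 and 29.0 CPM (2.58-fold higher). Dpp4-type cells gave 27.7% of the UMIs of that library but 87.8% of the Bmp7 UMIs and 85.8% of the Bmp6 UMIs. Per cell, 49.8% of Dpp4-type cells and 3.41% of other cells had Bmp7.

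The classes differed in the make-up of their ligand UMIs, although Bmp4 had a large part in both (29.4% in other cells of the WT-labelled library). Gdf10 made 52.6% of the ligand UMIs of other cells in the WT-labelled library and 4.16% of those of Dpp4-type cells, where Bmp4 (21.6%), Bmp2 (19.9%), Bmp7 (19.5%) and Bmp6 (17.7%) had similar parts. In Dpp4-type cells of the ΔMPC-labelled library, Bmp2 alone made 40.3%.

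**Figure D2:**
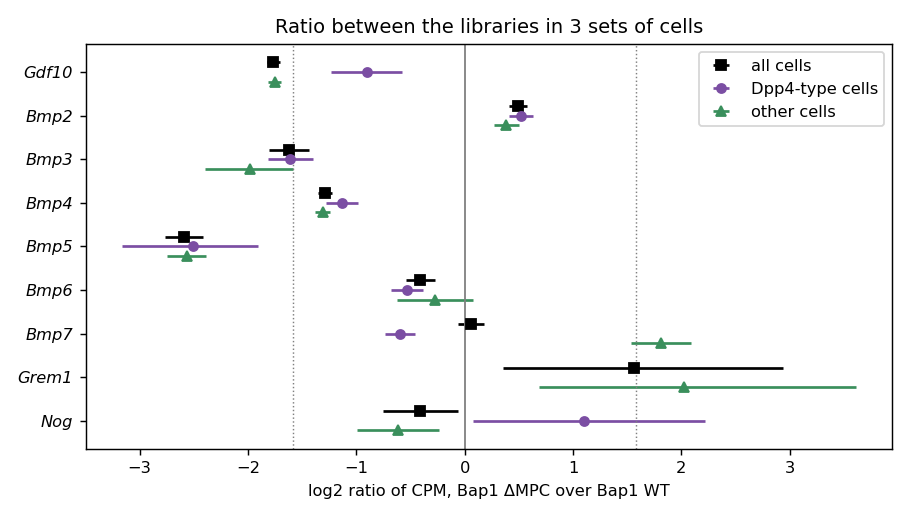
Log2 ratio of the CPM of each member, ΔMPC-labelled over WT-labelled library, in all cells (squares), Dpp4-type cells (circles) and other cells (triangles), with exact 95% intervals of counting error. Dotted lines mark 3-fold. Bmp5 lies near -2.5 in all 3 sets of cells, Gdf10 is nearer to 0 in Dpp4-type cells, and Bmp7 and Nog change side between the classes. Grem1 in Dpp4-type cells is not drawn, since it had 0 UMIs in 1 library.

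Between the libraries, the lower levels held in both classes for Gdf10, Bmp3, Bmp4 and Bmp5. In Dpp4-type cells, 2 of 8 members were past 3-fold (Bmp3 and Bmp5), beside 3.02% of all genes. In other cells, 4 of 8 were past it (Gdf10, Bmp3 and Bmp5 lower and Bmp7 higher), beside 3.69%. The sum of the 7 ligands was 375 and 266 CPM in Dpp4-type cells (log2 ratio -0.49, -0.55 to -0.43) and 524 and 209 CPM in other cells (log2 ratio -1.32, -1.36 to -1.29).

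Bmp5 was lower in both classes, and its ratios there did not differ beyond counting error (difference 0.05, -0.57 to 0.67). Dpp4-type cells had 10.4 and 1.83 CPM and other cells 50.1 and 8.48 CPM, with log2 ratios of -2.51 (-3.16 to -1.91) and -2.56 (-2.74 to -2.38). Gdf10 had 15.6 and 8.33 CPM in Dpp4-type cells (log2 ratio -0.90) and 275 and 81.7 CPM in other cells (log2 ratio -1.75), so that its ratio was 0.85 (0.53 to 1.17) nearer to 0 in Dpp4-type cells. This did not hold throughout that class, as given further on. Bmp4 had 80.8 and 36.9 CPM (log2 ratio -1.13) and 154 and 62.2 CPM (log2 ratio -1.31).

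Bmp3 had 53.6 and 17.6 CPM in Dpp4-type cells (log2 ratio -1.61) and 7.26 and 1.84 CPM in other cells (log2 ratio -1.98). In Dpp4-type cells it was just past 3-fold, and it fell short of 3-fold there with a cut of 40, without Efemp1 or Sema3c in the cut, after thinning, or without cells holding an adipocyte-marker or a tendon-marker UMI, which left Bmp5 as the single member past the fold. Bmp2 was higher in both classes, with 74.7 and 107 CPM (log2 ratio 0.52) and 29.0 and 37.9 CPM (log2 ratio 0.39). Bmp6 had 66.4 and 45.9 CPM in Dpp4-type cells (log2 ratio -0.53), and its 4.201 and 3.48 CPM in other cells did not differ beyond counting error.

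Bmp7 differed in opposite ways in the 2 classes. Among Dpp4-type cells it had 73.1 CPM (68.7 to 77.7) in the WT-labelled library and 48.3 CPM (44.8 to 52.0) in the ΔMPC-labelled library, a log2 ratio of -0.60 (-0.74 to -0.46). Among other cells it had 3.90 CPM (3.29 to 4.59) and 13.7 CPM (12.5 to 14.98), a log2 ratio of 1.81 (1.54 to 2.09), and it was found in 3.41% and 8.95% of them (1.92% and 5.46% after thinning). Dpp4-type cells thus gave 87.8% of the Bmp7 UMIs in the first library and 59.97% in the second. The ratio in other cells was 1.31 to 1.92 under 11 alternatives. It was 1.31, within 3-fold, with a cut of 40, 1.85 without cells holding an adipocyte-marker UMI and 1.92 without those holding a tendon-marker UMI. Nog also changed side, with 12 and 27 UMIs in Dpp4-type cells (log2 ratio 1.11, 0.08 to 2.22) and 156 and 96 UMIs in other cells (log2 ratio -0.61, -0.997 to -0.24), although its counts are low.

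The classes were also opened into 7 bins of the score, the summed UMIs of the 4 cut genes per 10000, with 82 to 1319 cells each. Gdf10 decreased along the score in the WT-labelled library, from 408 CPM below 2 to 5.78 CPM at 100 or more. In the ΔMPC-labelled library it went from 105 to 3.29 CPM, lower in 6 of 7 bins beyond counting error. From 25 to 50 its log2 ratio was -1.015 (-1.393 to -0.64), in 398 and 646 cells. From 50 to 100 it was -1.86 (-2.75 to -1.06), from 66 and 16 UMIs. The ratio nearer to 0 in Dpp4-type cells as a whole (-0.90) was thus not seen from 50 to 100. Bmp3 and Bmp4 were lower beyond counting error in 7 of 7 bins and Bmp5 in 6. In the bin at 100 or more, where their intervals included 0, Gdf10 had 11 and 3 UMIs and Bmp5 had 10 and 1. Bmp2 was higher beyond counting error in the 5 bins from a score of 5 upward, and in the lowest bins its log2 ratios were 0.23 (-0.02 to 0.49) and 0.12 (-0.13 to 0.38). Bmp3 had 7.15 CPM in the lowest bin and 139 CPM in the highest bin of the WT-labelled library. From a score of 25 upward, the log2 ratios of Bmp6 were -0.22 (-0.51 to 0.06), -0.40 and -0.42.

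Bmp7 was higher in the ΔMPC-labelled library in the 4 bins below 25 and lower in the 3 above, each beyond counting error. Below a score of 2, farthest from the cut, it had 18 UMIs (1.84 CPM) and 110 UMIs (7.63 CPM), a log2 ratio of 2.05 (1.33 to 2.86). From 5 to 10 the levels were 2.77 and 15.3 CPM (log2 ratio 2.47), and at 100 or more they were 108 and 47.2 CPM. Its slope along the score was thus flatter in that library. For Nog, 0 of 7 bins were higher and 2 were lower beyond counting error.

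**Figure D3:**
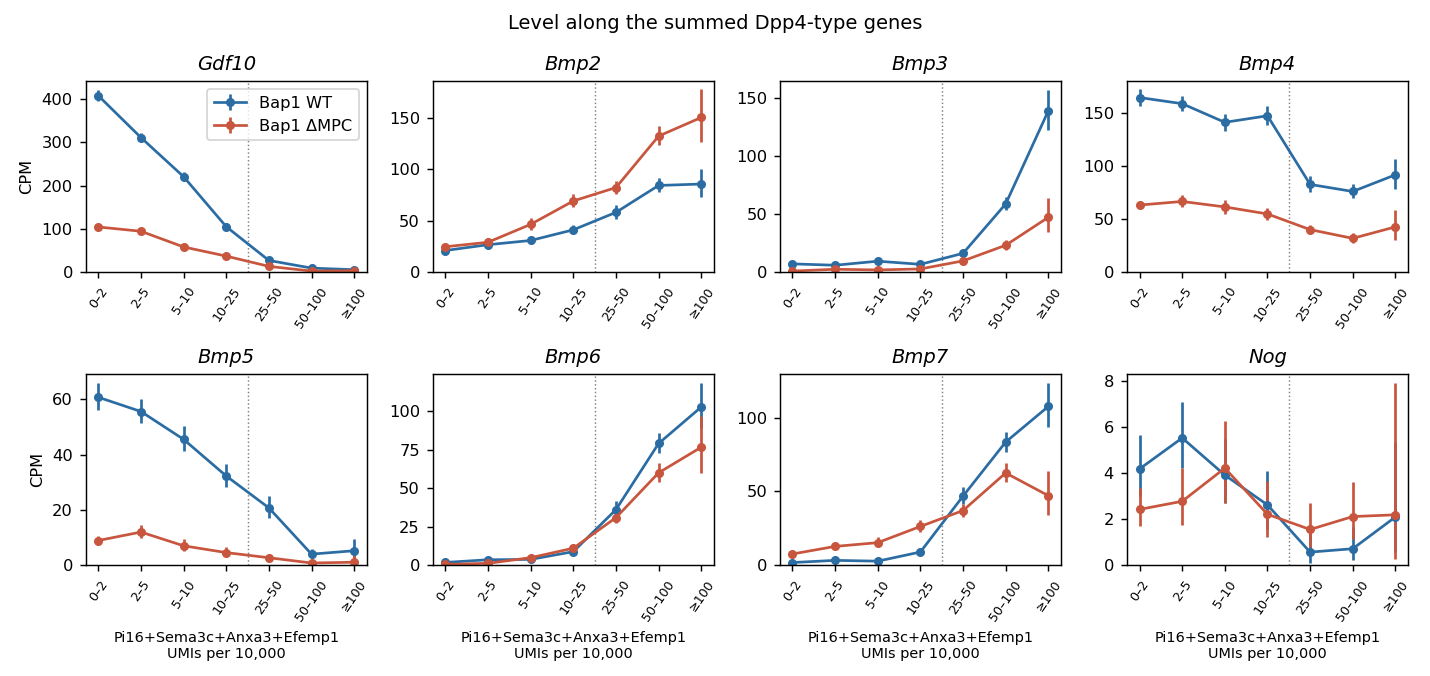
CPM of 8 members in 7 bins of the summed UMIs of Pi16, Sema3c, Anxa3 and Efemp1 per 10000, for the WT-labelled library (blue) and the ΔMPC-labelled library (red), with exact Poisson 95% intervals. The dotted line marks the cut of 25. Gdf10 and Bmp5 are lower and Bmp3, Bmp6 and Bmp7 higher in the rightmost than in the leftmost bin, not always step by step. Bmp7 in red is highest from 50 to 100. The lines of Bmp7 cross at the cut.

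Over all cells, 1 of the ligands was most often found per cell in the WT-labelled library and none in the ΔMPC-labelled library. At 5000 UMIs per cell, none of the 7 ligands was found in 20.7% (19.5% to 22.03%) of cells of the WT-labelled library and in 47.4% (45.9% to 48.9%) of the ΔMPC-labelled library. In other cells these shares were 19.6% and 52.6%, and in Dpp4-type cells 24.2% and 34.5%. Dpp4-type cells of the ΔMPC-labelled library most often had 1 ligand found, in 41.7% of them. The share with 3 or more ligands was 8.29% and 2.35%. It was highest in Dpp4-type cells of the WT-labelled library, at 14.96%.

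**Figure D4:**
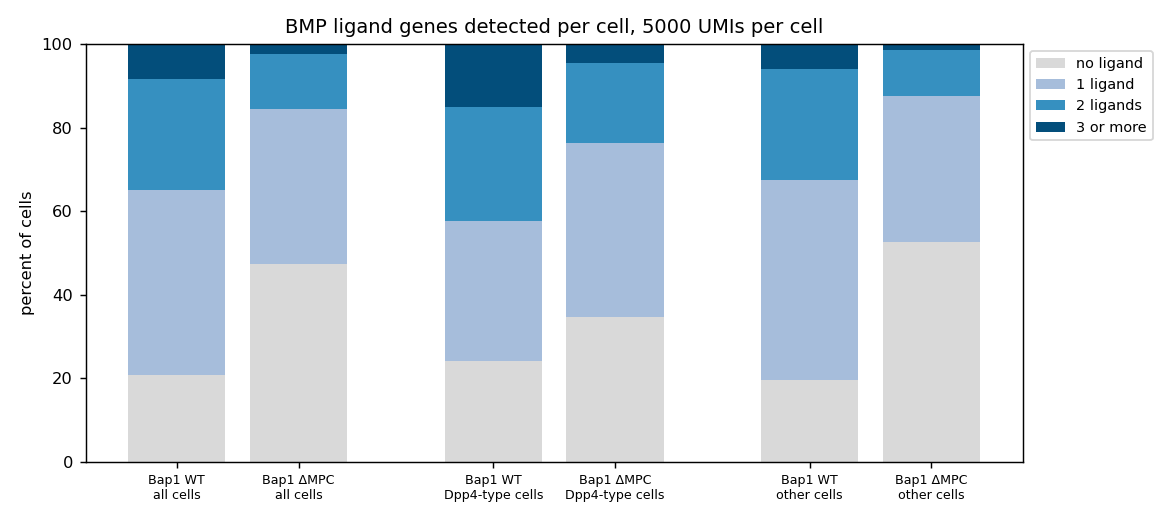
Percent of cells in which 0, 1, 2 or 3 and more of the 7 ligand genes were found after every cell was thinned to 5000 UMIs, by library and class of cells. The grey part, cells with no ligand, is larger in the ΔMPC-labelled library in all 3 sets, 52.6% against 19.6% in other cells.

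Pairs of members followed the classes. In the WT-labelled library, thinned cells with Gdf10 had Bmp6 in 1.25% and cells without Gdf10 in 11.3%, and cells with Bmp6 had Bmp7 in 28.5% against 6.81% of cells without. Within Dpp4-type cells alone, the Bmp6 and Bmp7 pair was much weaker, at 33.6% against 25.8%, and in the ΔMPC-labelled library it was 17.7% against 17.0%. Other pairs stood within a class. Among other cells of the WT-labelled library, Bmp4 was found in 30.8% (28.3% to 33.4%) of cells with Gdf10 and in 50.2% (47.7% to 52.6%) of those without, so that the most abundant ligands tended to lie in different cells. In the ΔMPC-labelled library these shares were 20.1% and 21.9%. Bmp5 went with Bmp4, which was found in 49.4% of other cells with Bmp5 and 40.3% of those without in the first library, and in 39.3% and 21.1% in the second. Nog, found in 59 thinned other cells of the WT-labelled library, went with Gdf10, in 69.5% (56.1% to 80.8%) against 43.2%.

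The genes most like each member across cells were ranked by the lower of the Pearson correlations of log-normalized UMIs in the 2 libraries. They were sought among 8148 genes with 1000 or more UMIs over 4103 and 4378 cells, which share depth and class within a library, and the correlations are descriptions. For Gdf10 they were Cygb, a globin of fibroblasts (r = 0.56 and 0.43), Clec11a (0.45 and 0.37) and Fmo2 (0.53 and 0.34). For Bmp4 they were Smoc2 (0.39 and 0.28), Aldh1a1 and Hmcn2. Bmp6 and Bmp3 shared Aldh1a3, an enzyme that makes retinoic acid, as the leading gene (0.51 and 0.43 with Bmp6, 0.42 and 0.26 with Bmp3). Next came Dact2 (0.53 and 0.43) and Anxa3, 1 of the cut genes, for Bmp6, and Ildr2 and Olfml2a for Bmp3. Bmp2 and Bmp7 shared Ackr3, a decoy receptor of Cxcl12 (0.33 and 0.36 with Bmp2, 0.37 and 0.25 with Bmp7). The others were Pcsk6, a protease that cleaves TGF-β superfamily precursors (0.32 and 0.38), and Cd55 for Bmp2, and Akr1c18 (0.39 and 0.28) and Scara5 for Bmp7. Bmp5 had no gene at 0.2 or above.

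As sets, the receptors, signal transducers and target genes had smaller ratios than the members. Their median absolute log2 ratios in all cells were 0.24, 0.15 and 0.30, beside 0.89 for the members and 0.23 over all genes. Past 3-fold in all cells were 0 of 12 receptors and co-receptors, 0 of 9 signal transducers, 0 of 12 target genes and 0 of 2 further ligands, beside the 3.12% of all genes. These are the genes with enough UMIs out of 13, 10, 15 and 10 listed, and Smad6, Smad7 and Bambi stand both among the target genes and in another list. Of the further secreted antagonists and modulators, Nbl1, of the DAN family, was higher, with 482 and 732 CPM (log2 ratio 0.60). Fstl1, a follistatin-like glycoprotein, was the most abundant of that list and had 3164 and 3168 CPM.

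Bmper, a secreted modulator of BMP signaling, had 41.4 and 105 CPM in other cells (log2 ratio 1.35) and 14.3 and 8.33 CPM in Dpp4-type cells (log2 ratio -0.78), so that it was 12.7-fold higher in other than in Dpp4-type cells of the ΔMPC-labelled library. Tll1, a protease that cleaves the antagonist chordin, had 7.51 and 2.44 CPM in Dpp4-type cells (log2 ratio -1.62). Fstl3, which binds activins, was lower in Dpp4-type than in other cells of the WT-labelled library, at 2.91 and 9.76 CPM. Bmp8a, a further ligand whose close copy Bmp8b had no UMI, had 7.23 and 13.3 CPM in Dpp4-type cells (log2 ratio 0.88) and 0.30 and 0.92 CPM in other cells (11 and 32 UMIs, log2 ratio 1.63). It was past 3-fold higher in Dpp4-type cells in both libraries, as were Bmp3, Bmp6 and Bmp7. Gdf9 had 114 and 103 UMIs and did not differ beyond counting error.

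The receptors were present in both classes. Of the 12 receptors and co-receptors, 5 were higher and 5 lower in the ΔMPC-labelled library beyond counting error in all cells. Bmpr2, a type II receptor, had 95.7 and 114 CPM in all cells (log2 ratio 0.25), and Bmpr1a, a type I receptor, had 88.7 and 99.1 CPM (log2 ratio 0.16). The lower ones included Neo1, with 72.7 and 30.5 CPM, and Acvrl1, with 92.5 and 48.4 CPM. Acvr2a, also of type II, had 56.7 CPM in other and 16.1 CPM in Dpp4-type cells of the ΔMPC-labelled library, and Bmpr1b had under 2 CPM in both classes. Smad4, the common partner, had 84.4 and 84.6 CPM, and Smad1 had 54.7 and 55.5 CPM. Under TMM scaling, which lowered the median of all genes from 0.10 to 0.00, the medians of the receptors and of the transducers were -0.10 and -0.06.

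Genes that BMP signaling drives were lower in Dpp4-type cells of the ΔMPC-labelled library. All 12 that entered had a ratio below 0 there, beside 41.4% of all genes, and 7 of them were lower beyond counting error, beside 17.7%. Their median was -0.50 beside 0.07 over all genes, and none was past 3-fold. After thinning it was 8 of the 9 that entered. Id3, an inhibitor of differentiation and the most abundant of the list, had 527 and 327 CPM in Dpp4-type cells (log2 ratio -0.69, -0.74 to -0.64) and 929 and 891 CPM in other cells (log2 ratio -0.06). Id2 had 89.1 and 54.1 CPM in Dpp4-type cells (log2 ratio -0.72) but 174 and 234 CPM in other cells (log2 ratio 0.43), and Id1 had 16.4 and 11.9 CPM (log2 ratio -0.46) and 70.6 and 67.2 CPM. Smad6, an inhibitor that the pathway itself induces, had 3.61 and 1.964 CPM in Dpp4-type cells (log2 ratio -0.88) and 5.07 and 6.53 CPM in other cells (log2 ratio 0.37). Other targets were lower in both classes. Smad7 had 50.6 and 28.9 CPM in Dpp4-type cells and 57.5 and 37.7 CPM in other cells. Bambi had 29.4 and 20.2 CPM in Dpp4-type cells and 40.1 and 26.5 CPM in other cells. In other cells, 7 of the 12 were lower beyond counting error and 3 were higher, as given further on.

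The same 12 genes had a ratio below 0 in Dpp4-type over other cells of both libraries, beside 52.1% and 56.9% of all genes, with medians of -0.78 and -1.53 beside -0.02 and -0.05 over all genes. Past 3-fold were 3 of them in the WT-labelled library (Id1, Hey1 and Runx2), beside 8.63% of all genes. In the ΔMPC-labelled library 6 were past it (Id1, Id2, Smad6, Atoh8, Hey1 and Runx2), beside 8.03%. Hey1 had 5.45 and 1.28 CPM in other and Dpp4-type cells of the first library, and Runx2, the master factor of osteoblasts, had 5.96 and 1.13 CPM. Atoh8 had 5.41 and 1.76 CPM in the second. In other cells, 8 of the 12 had a ratio below 0 between the libraries, beside 37.2% of all genes, with a median of -0.18. There, 7 were lower beyond counting error, beside 21.2% of all genes, and 3 were higher.

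**Figure D5:**
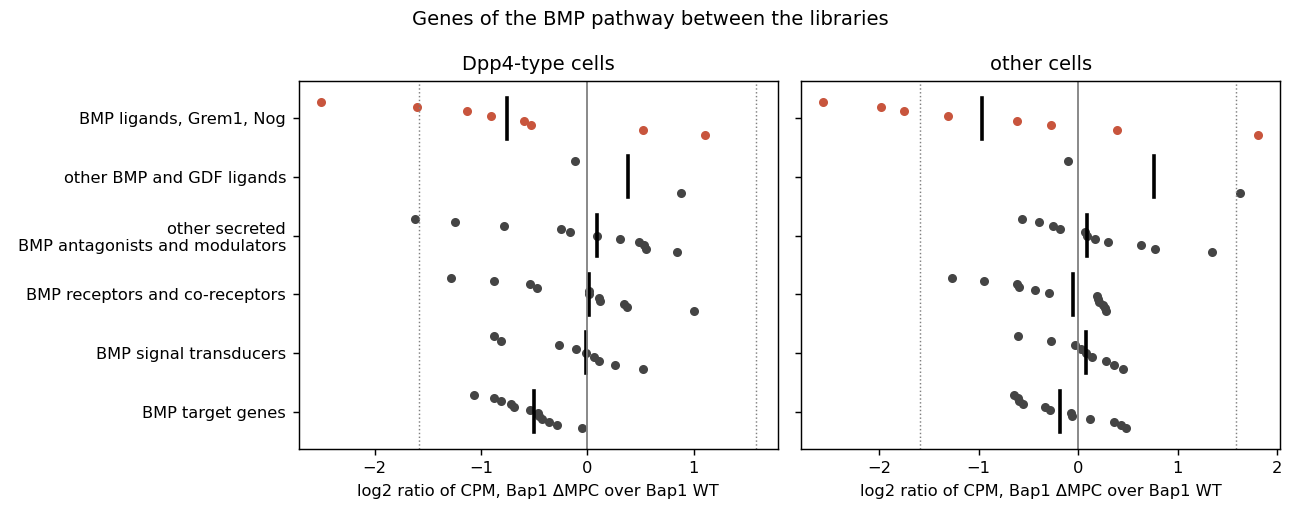
Log2 ratio of CPM, ΔMPC-labelled over WT-labelled library, for each reported gene that entered (points) and the median (bar) of the members (red) and 5 lists of other BMP pathway genes (grey), in Dpp4-type cells (left) and other cells (right). Dotted lines mark 3-fold. The members spread most widely, and all 12 target genes lie below 0 in Dpp4-type cells.

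The adipocyte markers that moved with these results did so mainly in other cells, where they summed to 7.67 and 102 CPM, beside 2.41 and 13.4 CPM in Dpp4-type cells, and tendon markers summed to 99.8 and 174 CPM in other cells and 6.94 and 20.3 CPM in Dpp4-type cells. Without the 185 and 627 cells that held an adipocyte-marker UMI, the log2 ratio of Gdf10 was -1.83 in all cells. Without the 684 and 709 cells that held a tendon-marker UMI it was -1.77. Apart from these values, the part of such cells in the results was not tested.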

How the data were processed

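FAPs were sorted by FACS from limb muscle and profiled with the 10x Genomics 3′ v3.1 kit, 1 library per genotype. Per the labels and methods, the authors aligned the reads to mm10 with Cell Ranger 3.1.0, filtered cells and doublets in Seurat 3.2.1 under R 3.6.1 and removed cells with high markers of other cell types. The deposited values are raw UMI counts per gene and cell, made by the authors without normalization, and every cell had 1501 to 4998 genes. The labels and methods name different sequencers. No further cell was removed and no doublet caller was run.

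UMIs were summed per library and class of cells and divided by the total (CPM). Ratios of CPM carry exact conditional binomial 95% intervals, levels exact Poisson and shares exact Clopper-Pearson intervals. Where a group had 0 counts, 3 counts per group stood in as the floor. Genes entered with a mean of over 0.01 UMIs per 10000 and 20 or more UMIs in both groups together. The fold of 3 is that of the methods. The members and the pathway and marker lists were chosen with earlier results of these data known. All 9 members are named in every comparison, with Bap1, Pdgfra and the cut genes as checks, the listed pathway genes past the fold in any comparison, the 2 of each list with the most UMIs, and for each member with 1000 or more UMIs the 3 most like genes at r of 0.2 or above. The sum of the ligands, Dpp4, Cxcl14 and the sex-linked and marker genes were added as checks. Neo1, Acvrl1, Smad7 and Bambi were named outside these rules, for their lower levels. A gene of the list of secreted antagonists and modulators is not reported here and is left out of that list in the plot of the pathway. The ratio script was tested on simulated data. Alternatives changed the cut, scaling (TMM from edgeR 4.0.16, used for factors and no test), depth, minimum and fold, and 2 that leave out cells with adipocyte or tendon markers were chosen after seeing the data. Python 3.11.15, numpy 2.4.6, scipy 1.17.1 and R 4.3.3 were used.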

Additional observations from a re-analysis of the deposited data

Results flagged for a closer look

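Bmp7 and Nog were set apart because their ratios between the libraries had opposite signs in the 2 classes of cells, each beyond its counting interval. For Bmp7, the log2 ratio in Dpp4-type cells minus that in other cells was -2.41 (-2.71 to -2.11, counting error only), from -0.60 and 1.81. For Nog it was 1.72 (0.67 to 2.77), from 1.11 and -0.61, and rests on 12 and 27 UMIs in Dpp4-type cells. With 1 library per genotype, neither difference was tested.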

How the results depend on the processing

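The counts of members past 3-fold stayed within 1.5 times of the reported ones except in 2 comparisons. In Dpp4-type cells the count between the libraries was 1 in place of 2 with a cut of 40, without Efemp1 in the cut, without Sema3c in the cut, after thinning, and without cells holding an adipocyte-marker or a tendon-marker UMI, and it was 4 with a fold of 2 (Bmp3, Bmp4, Bmp5 and Nog), beside 7.83% of all genes. In other cells it was 2 in place of 4 with a cut of 40 (Gdf10 and Bmp5), beside 3.57% of all genes. The share of Dpp4-type cells in the WT-labelled and ΔMPC-labelled libraries was 32.7% and 36.8% with a cut of 15, 19.8% and 18.5% with a cut of 40, 24.2% and 24.1% without Efemp1 and 22.9% and 20.5% without Sema3c. Of 458 recomputed log2 ratios of members, 391 stayed within the counting interval and 442 kept their direction. Bmp6 in other cells ranged from -0.75 to 0.30, with 8 of 11 in the reported direction, and Bmp7 in all cells from -0.04 to 0.18, with 4 of 7. Gdf10, Bmp2, Bmp3, Bmp4, Bmp5 and Nog kept their direction between the libraries under all of these. TMM scaling moved the share of higher genes among those past 3-fold in all cells from 59.1% to 50.6%. No paired analysis was possible because only 1 library stood for each genotype and nothing was tested, and no replicate could be left out. The depth limits Grem1 and Nog most.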
